A study of Mus musculus with 6 samples.

Results

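The genes described here are those whose name had transcript rows moving in opposite directions between B-1a and B-1b cells. The table gives 13747 transcript rows under 7834 gene names, and 3355 names have 2 or more rows. The 50 immunoglobulin names among these were left aside, and 0 of them would have met the rule, which left 3305 names. A gene was chosen by its values when 1 row was at least 2 FPKM and at least 2-fold higher in both B-1b libraries than in both B-1a libraries, and another row was at least 2 FPKM and at least 2-fold higher in both B-1a libraries. FPKM are fragments per kilobase of transcript, scaled to the number of mapped fragments, a level corrected for length and depth. The rule chose 62 genes with 216 rows, which is 1.88% of the 3305 names. Because this contrast selected them, their differences between the groups are a description and carry no test.

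The libraries were made from poly(A)-enriched RNA of B-1 cells of untreated wild-type C57BL/6 mice, all male per the study's methods. B-1a and B-1b cells of the peritoneal cavity were separated by FACS, with 3 labelled replicates per group. Neither the age of the mice nor whether a replicate was 1 mouse, a pool or a repeat of 1 preparation is stated in the labels or methods. The surface protein CD5 divides the 2 cell types, B-1a cells being CD5+ and B-1b cells CD5-. In all 216 rows the B-1b replicate 3 column repeated replicate 1 and the B-1a replicate 3 column was the mean of replicates 1 and 2, so 2 libraries per group were used. The summed FPKM of a library lay between 324330 and 366992, and the read depth is unknown. All 20 B cell markers were listed, with summed levels of 18808 to 22188 FPKM. Cd5 RNA was at 0.446 and 0.757 FPKM in the B-1a libraries and at 0.895 and 0.737 FPKM in the B-1b libraries, so the transcript of the sorting marker was low in both groups and did not separate them. Of 12 macrophage markers 10 were listed, all at 1 FPKM or more in the 4 libraries, with Fcgr1 and Gata6 absent, and their summed level was 4786 and 3604 FPKM in the B-1a libraries and 4471 and 7573 FPKM in the B-1b libraries. Lyz2 held most of that sum, which overlapped between the groups, as did Lyz2 itself. Of the 10 markers 6 (Adgre1, Csf1r, Cd14, C1qb, C1qc and Cd68) were higher in both B-1b libraries than in both B-1a libraries and 1 (Timd4) was lower. Adgre1, for example, was at 51.1 and 56.0 FPKM in B-1a against 90.4 and 101 FPKM in B-1b. Over all 7834 listed genes 25.9% were higher and 17.1% lower without overlap. Of the other lists 8 of 11 B-1 cell markers were higher in B-1b and 0 lower, of 7 plasma cell markers 1 (Xbp1) was higher and 4 (Sdc1, Mzb1, Irf4 and Slamf7) were lower, and of the 20 B cell markers 7 were higher and 5 lower. Of 11 T cell markers 6 were listed, summing to 9.24 to 16.0 FPKM, with Cd4, Cd8a, Thy1, Lat and Cd247 absent and 0 of the 6 free of overlap. The part of other cells in the row values was not tested.

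Most mammalian genes make several transcripts by starting at different promoters, by splicing exons in different combinations and by ending at different sites. The transcripts of 1 gene may encode different proteins or the same protein with different untranslated ends. Short reads that fall in exons shared by several transcripts do not say which transcript they came from, so an assembler such as StringTie divides them among the transcripts by a model, and a small difference in the reads that do discriminate can move a large share from 1 transcript to another. The level of a gene summed over its transcripts does not depend on that division in the same way. The deposited rows carry a gene name but no transcript identifier, so a row cannot be assigned to an annotated transcript, exon or start.

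All 62 genes matched a GENCODE M21 gene on GRCm38. Of these 61 are protein coding, 53 have at least 2 distinct annotated coding sequences, and all 62 have at least 2 annotated starts. The names Chtf8 and Ptp4a1 each have 2 gene IDs in this annotation. Rows under these names may therefore belong to different annotated genes, which was not tested. The chosen genes had a median of 3 rows, against 2 for the 3243 other genes with several rows, and a median of 8.5 annotated transcripts against 7. Their median summed level was 20.0 FPKM against 18.4 FPKM. There were 24 genes with 2 rows, 18 with 3 rows and 20 with 4 or more, up to the 12 rows of Hnrnpk. In 34 genes the annotated span overlaps another gene, and for these reads of the neighbour may have been divided among the rows as well.

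Some annotated coding differences among the best-ranked genes are shown here, since they are what a pair of rows of 1 gene can stand for in the protein. They come from the annotation, and which row holds which exon was not determined. Calumenin, a calcium-binding protein of the secretory pathway encoded by Calu (chr6:29348069-29377110, plus strand), has a pair of alternative internal coding exons of 194 bases each. Among its 7 coding transcripts, 2 use the first exon, 1 uses the second and 0 use both. The first lies at chr6:29361294-29361487 and the second at chr6:29361560-29361753. The exons have the same base at 127 of 194 positions (65.5%), and capitals mark the 67 positions that differ.
Calu, first exon: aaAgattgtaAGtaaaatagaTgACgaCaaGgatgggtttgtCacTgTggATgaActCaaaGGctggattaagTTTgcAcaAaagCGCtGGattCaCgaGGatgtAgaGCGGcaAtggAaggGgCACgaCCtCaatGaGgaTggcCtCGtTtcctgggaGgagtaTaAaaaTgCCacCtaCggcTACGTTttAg
Calu, second exon: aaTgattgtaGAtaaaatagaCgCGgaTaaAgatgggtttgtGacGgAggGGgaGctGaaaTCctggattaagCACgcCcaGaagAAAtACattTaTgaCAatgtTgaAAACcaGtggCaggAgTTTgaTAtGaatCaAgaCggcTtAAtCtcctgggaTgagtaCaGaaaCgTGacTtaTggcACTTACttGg

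In 4 other genes of high level or large difference 1 internal coding exon is present in some annotated transcripts and skipped in others. Each of them is a multiple of 3 bases long, so that skipping it keeps the reading frame. The exon is in capitals, between the 15 coding bases of the exons before and after it. Carm1 (chr9:21587851-21587919, plus strand, 69 bases) has it in 1 of 4 coding transcripts, Pank4 (chr4:154980094-154980234, plus strand, 141 bases) in 1 of 2, Hnrnpk (chr13:58396188-58396259, minus strand, 72 bases) in 10 of 18 and Coro1a (chr7:126700257-126700472, minus strand, 216 bases) in 2 of 7.
Carm1: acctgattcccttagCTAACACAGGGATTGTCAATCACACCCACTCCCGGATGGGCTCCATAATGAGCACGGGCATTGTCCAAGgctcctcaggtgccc
Pank4: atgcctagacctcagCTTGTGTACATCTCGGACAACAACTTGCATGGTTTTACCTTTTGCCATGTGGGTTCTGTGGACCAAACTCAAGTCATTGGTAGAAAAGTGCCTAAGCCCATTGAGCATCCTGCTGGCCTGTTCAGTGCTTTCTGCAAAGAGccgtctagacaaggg
Hnrnpk: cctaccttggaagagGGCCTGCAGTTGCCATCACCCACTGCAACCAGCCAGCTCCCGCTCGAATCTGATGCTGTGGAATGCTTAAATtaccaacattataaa
Coro1a: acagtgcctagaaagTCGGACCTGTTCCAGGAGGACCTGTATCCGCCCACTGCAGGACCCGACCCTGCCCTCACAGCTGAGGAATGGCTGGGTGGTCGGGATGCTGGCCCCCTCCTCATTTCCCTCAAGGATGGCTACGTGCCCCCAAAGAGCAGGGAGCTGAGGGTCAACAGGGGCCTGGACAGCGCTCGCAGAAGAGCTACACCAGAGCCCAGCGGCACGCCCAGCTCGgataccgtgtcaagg

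The values of single rows come first, and then what remains after the rows of a gene are added. The 12 genes with the widest separation between the groups were Dcun1d1, Calu, Park7, Carm1, Idh1, Parg, Cwf19l1, Dhcr7, Tbc1d20, Hnrnpr, Snrpa and Pank4. Separation was measured as the log2 ratio of the lowest value in the higher group to the highest value in the lower group, after adding 1, in the weaker of the 2 directions. It ran from 0.69 to 3.37 over the 62 genes, with a median of 1.19. Without the added value, the weaker of the 2 rows differed by 2.01- to 42.0-fold, with a median of 2.96-fold, and in 26 genes both rows differed by at least 4-fold. Of all 9168 rows of the genes with several rows, 4.35% were higher in B-1b and 2.24% lower by the rule.

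**Figure D1:**
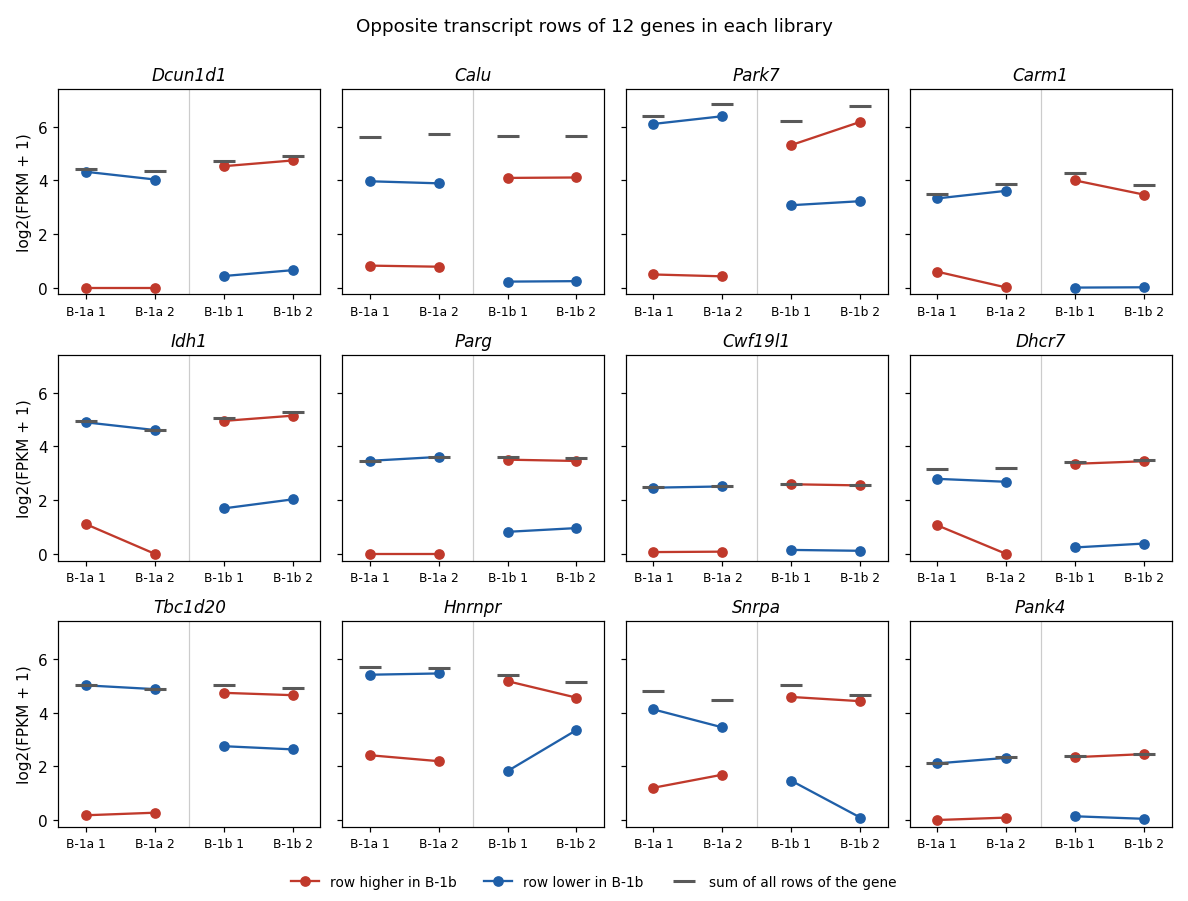
Level of the row higher in B-1b (red), the row lower in B-1b (blue) and the sum of all rows of the gene (grey bars) in each of the 4 libraries, on the log2(FPKM + 1) scale, for the 12 genes with the widest separation. The coloured points trade places between the groups, while the grey bars differ by less than 1.5-fold between the group means in all 12 genes.

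Dcun1d1 (chr3:35892105-35937445, minus strand), a factor that promotes the attachment of NEDD8 to cullin ubiquitin ligases, had 4 rows. One row was listed at 0 in both B-1a libraries and at 22.0 and 25.7 FPKM in the B-1b libraries. Another was at 18.9 and 15.3 FPKM in B-1a and at 0.354 and 0.574 FPKM in B-1b. Summed over its rows, Dcun1d1 was at 20.2 and 19.2 FPKM in B-1a against 25.4 and 29.1 FPKM in B-1b, so that the total of the gene differed far less than either row.

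Calu showed the same exchange beside another row that held most of the gene. The row higher in B-1b went from 0.770 and 0.721 FPKM to 16.0 and 16.2 FPKM and the row lower in B-1b from 14.6 and 13.8 to 0.172 and 0.186 FPKM. The main row of Calu was at 32.7 and 36.7 FPKM in B-1a and at 32.5 and 31.8 FPKM in B-1b. The sum was 48.4 and 51.5 FPKM in B-1a against 49.3 and 48.7 FPKM in B-1b, overlapping ranges.

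Park7 (chr4:150897133-150914437, minus strand), which encodes the oxidative stress protein DJ-1, had 5 rows. Its rows were at 0.408 and 0.343 FPKM in B-1a against 38.7 and 71.1 FPKM in B-1b, and at 67.4 and 82.5 FPKM against 7.41 and 8.33 FPKM. The summed level of Park7 was 83.7 and 115 FPKM in B-1a against 72.6 and 108 FPKM in B-1b, where the libraries of a group differed more than the groups did.

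Carm1 (chr9:21546894-21592623, plus strand), an arginine methyltransferase and transcriptional coactivator, had a row at 0.514 and 0.00800 FPKM in B-1a against 14.9 and 10.1 FPKM in B-1b and another at 9.02 and 11.2 FPKM in B-1a against 0.00411 and 0.0122 FPKM in B-1b. Parg (chr14:32201949-32297550, plus strand), the enzyme that removes poly(ADP-ribose) chains, had only 2 rows. The first was at 10.03 and 11.2 FPKM in B-1a against 0.766 and 0.946 FPKM in B-1b, and the second was listed at 0 in both B-1a libraries and at 10.4 and 9.99 FPKM in B-1b. The sums of Parg were 10.03 and 11.2 FPKM in B-1a against 11.1 and 10.9 FPKM in B-1b, with group means closer to each other than the 2 B-1a libraries were.

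Among metabolic enzymes, Idh1 (chr1:65158616-65186500, minus strand), the cytosolic isocitrate dehydrogenase that makes NADPH, had 2 rows. They were at 1.15 and 0 FPKM in B-1a against 29.9 and 34.3 FPKM in B-1b, and at 28.7 and 23.4 FPKM in B-1a against 2.23 and 3.08 FPKM in B-1b. Dhcr7 (chr7:143823145-143848410, plus strand), the enzyme of the last step of cholesterol synthesis, had a row at 1.09 and 0 FPKM in B-1a against 9.21 and 9.91 FPKM in B-1b. Its opposite row went from 5.93 and 5.42 FPKM to 0.180 and 0.305 FPKM. Pank4 (chr4:154964123-154980938, plus strand), a pantothenate kinase family member, had a lower level, with 1 row at 0 and 0.0639 FPKM in B-1a against 4.06 and 4.47 FPKM in B-1b. The other row of Pank4 was at 3.31 and 3.97 FPKM against 0.101 and 0.0311 FPKM.

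Cwf19l1 (chr19:44108637-44135876, minus strand) had the largest fold in its weaker direction, 42.0. Its rows were at 0.0474 and 0.0591 FPKM in B-1a against 5.03 and 4.85 FPKM in B-1b and at 4.52 and 4.70 FPKM against 0.107 and 0.0828 FPKM. GENCODE M21 has only 1 coding transcript of Cwf19l1, so its 2 rows cannot both be coding transcripts of that annotation. Tbc1d20 (chr2:152293828-152313996, plus strand), a GTPase-activating protein for Rab1, had rows at 0.130 and 0.207 FPKM against 25.6 and 24.0 FPKM and 31.2 and 28.2 FPKM against 5.71 and 5.18 FPKM. Its sums, 31.4 and 28.5 FPKM in B-1a against 31.3 and 29.2 FPKM in B-1b, overlapped.

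The RNA-binding proteins Hnrnpr and Snrpa belong to the splicing apparatus themselves. Hnrnpr (chr4:136310942-136359447, plus strand) encodes a heterogeneous nuclear ribonucleoprotein. Its rows were at 4.32 and 3.56 FPKM in B-1a against 34.9 and 22.5 FPKM in B-1b, and at 41.4 and 42.8 FPKM in B-1a against 2.53 and 9.19 FPKM in B-1b. Snrpa (chr7:27187005-27196271, minus strand) encodes the A protein of the U1 spliceosomal particle. Its rows were at 1.30 and 2.22 FPKM against 22.9 and 20.4 FPKM and at 16.3 and 9.91 FPKM against 1.755 and 0.0664 FPKM. The spread between libraries of 1 group was wide for the lower row of both genes in B-1b.

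The share of a gene's summed level that a row holds is a proportion, from which the overall level of the gene cancels. In 51 of the 62 genes (82.3%) the row with the highest mean level was a different one in B-1a and B-1b, against 717 of all 3305 genes with several rows (21.7%). The rule, which asks for opposite rows, favours such a change. In 45 of the 51 the leading row was also the same in both libraries of each group. The largest changes of share were in Pank4, Cwf19l1, Parg, Idh1, Chtf8 and Dhcr7. In Pank4 the row higher in B-1b held 0 and 1.58% of the gene in the B-1a libraries and 97.6 and 99.3% in the B-1b libraries. In Cwf19l1 it held 1.04 and 1.24% in B-1a against 97.9 and 98.3% in B-1b. In Parg it held 0% in both B-1a libraries against 93.1 and 91.3% in B-1b, and in Idh1 3.85 and 0% against 93.0 and 91.8%. Chtf8 (chr8:106883863-106893601, minus strand), a subunit of an alternative clamp loader used in DNA replication, had a row with 19.2 and 0% of its sum in B-1a and 98.3 and 98.7% in B-1b. The name Chtf8 has 2 gene IDs, so its sum may hold rows of different annotated genes. In Dhcr7 the row held 13.8 and 0% against 93.8 and 97.0%. In 33 of the 62 genes the pair of opposite rows made up at least 80% of the sum in both groups.

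**Figure D2:**
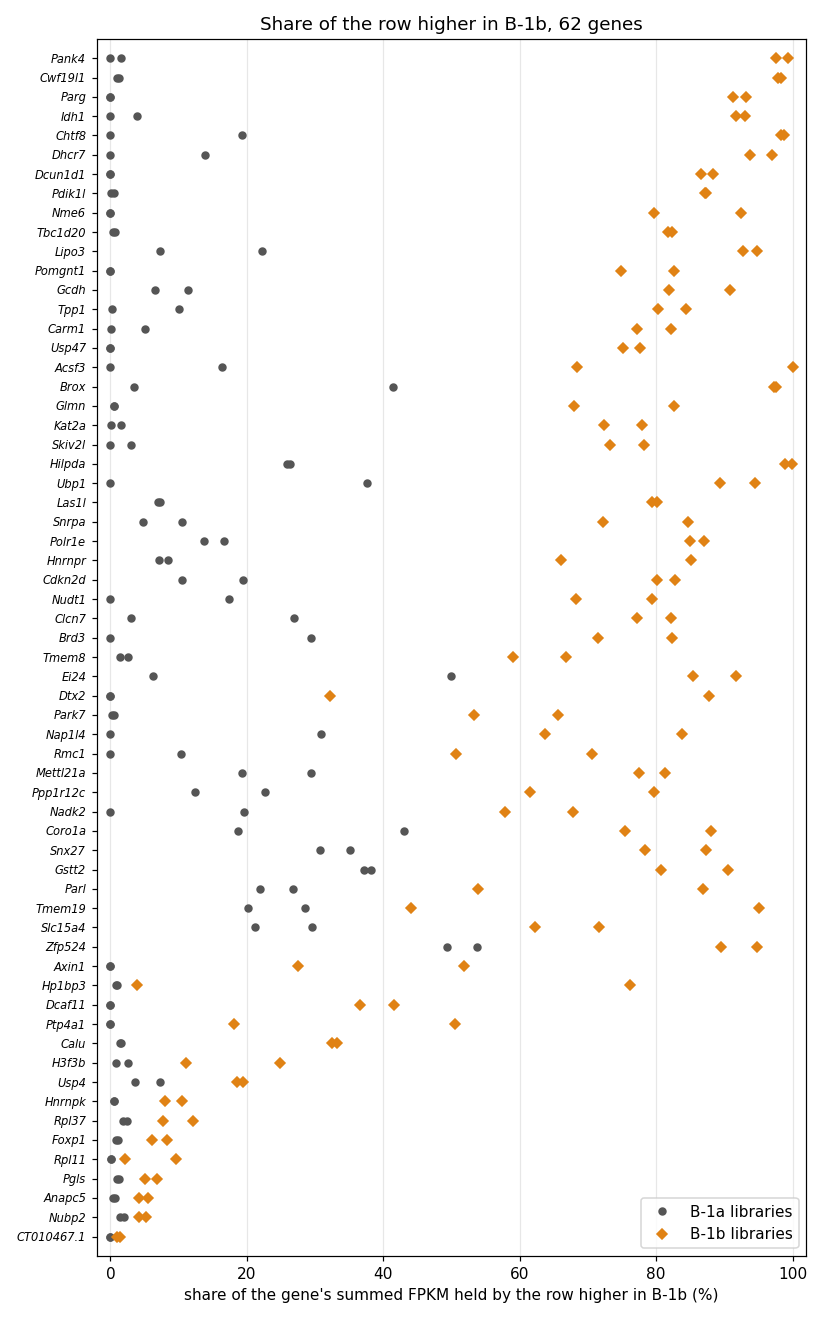
Share of the summed FPKM of each of the 62 genes held by its row higher in B-1b, in percent, with 1 point per library (grey circles, B-1a; orange diamonds, B-1b), ordered by the mean change. In Pank4, Cwf19l1 and Parg at the top the row went from at most 1.58% to at least 91.3%, and in CT010467.1 at the bottom it held at most 1.45%.

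In a few genes the row higher in B-1b was a small part of the total. In CT010467.1, Rpl11, Pgls, Nubp2 and Foxp1 it held less than 10% of the gene in every library, as did 1 of the 2 such rows of Anapc5. The opposite row was also small in Rpl11 and Foxp1, but in B-1a it held 37.8 and 26.3% of Pgls and 69.8 and 95.6% of Nubp2. Foxp1, a transcription factor of B cell development, had 11 rows with a sum of 33.0 and 32.6 FPKM in B-1a against 46.9 and 25.7 FPKM in B-1b. Its opposite rows were at 0.285 and 0.371 FPKM against 2.83 and 2.13 FPKM and at 2.34 and 2.13 FPKM against 0.00326 and 0.00489 FPKM, near the minimum of the rule.

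The genes with the highest summed level were CT010467.1, Coro1a, Rpl37, Rpl11, Hnrnpk and Park7. CT010467.1 (chr17:39846353-39848827, minus strand) is annotated as ribosomal RNA and has many near-identical copies in the genome, so the origin of its reads is uncertain. Its main row was at 2266 and 2267 FPKM in B-1a against 140.0 and 553 FPKM in B-1b, and its other row at 0.0497 and 0.125 FPKM against 2.06 and 5.12 FPKM. The main row was lower in both B-1b libraries, which themselves differed by more than 3-fold, and the other row held a small share throughout.

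Coro1a (chr7:126699773-126707787, minus strand), an actin regulator abundant in leukocytes, had 7 rows. One of them was at 133 and 150.1 FPKM in B-1a against 573 and 881 FPKM in B-1b. The opposite row that met the rule was minor, at 3.17 and 2.91 FPKM against 1.08 and 1.43 FPKM. Another row of Coro1a was at 479 and 121 FPKM in B-1a and at 103 and 32.3 FPKM in B-1b and did not meet the rule. The sum was 712 and 348 FPKM in B-1a against 759 and 1001 FPKM in B-1b, and the B-1a libraries differed from each other by more than the higher of them differed from the nearer B-1b library.

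Rpl37 (chr15:5116645-5119140, plus strand) and Rpl11 (chr4:136028265-136053428, minus strand) encode proteins of the large ribosomal subunit and have processed copies elsewhere in the genome that can share reads with them. A row of Rpl37 was at 144 and 181 FPKM in B-1a and was listed at 0 in both B-1b libraries, while another was at 7.80 and 6.20 FPKM against 17.9 and 16.3 FPKM. The row of Rpl37 with the highest mean level in both groups was at 178 and 158 FPKM in B-1a against 125 and 194 FPKM in B-1b, overlapping. In B-1a replicate 2 it was below the row that was listed at 0 in B-1b. The sum of Rpl37 was 329.7 and 347 FPKM in B-1a against 149 and 210.0 FPKM in B-1b. Only 1 distinct coding sequence of Rpl37 is annotated. The opposite rows of Rpl11 were at 0.280 and 0.213 FPKM against 8.75 and 2.84 FPKM and 10.4 and 11.5 FPKM against 1.92 and 2.47 FPKM, beside a main row at 210 and 218 FPKM in B-1a against 61.1 and 109 FPKM in B-1b.

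Hnrnpk (chr13:58391142-58403343, minus strand), an RNA-binding protein with roles in splicing and transcription, had a row at 0.959 and 0.972 FPKM in B-1a against 13.7 and 14.7 FPKM in B-1b. Its opposite row was at 11.1 and 6.68 FPKM against 2.76 and 0.755 FPKM. The leading row of Hnrnpk, at 67.0 and 73.2 FPKM in B-1a and at 63.1 and 77.9 FPKM in B-1b, was the same in both groups.

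When the rows of a gene were added, little of the opposite movement remained in most of the chosen genes. On the log2(FPKM + 1) scale the sum differed by less than 1.5-fold between the groups in 55 of 62 genes (88.7%), against 79.4% of all 3305 genes with several rows. Over the 62 genes the median difference of the sums was 0.09 on the log2(FPKM + 1) scale, against 0.07 over the 3305 genes, and the median size regardless of direction was 0.217 against 0.255. The sum was higher in B-1b in 40 genes and lower in 22. The median over the 3305 genes was above no difference as well, so this lean is not particular to the chosen genes. In 21 of the 62 genes every B-1b library was above every B-1a library, beside 870 of the 3305 genes (26.3%). In 12 of the 62 every B-1b library was below, beside 473 of the 3305 (14.3%). Both shares were above those of the 3305 genes. Having rows that move both ways favours a sum near no difference, so the count within 1.5-fold follows in part from the rule. That reason does not cover the counts without overlap.

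**Figure D3:**
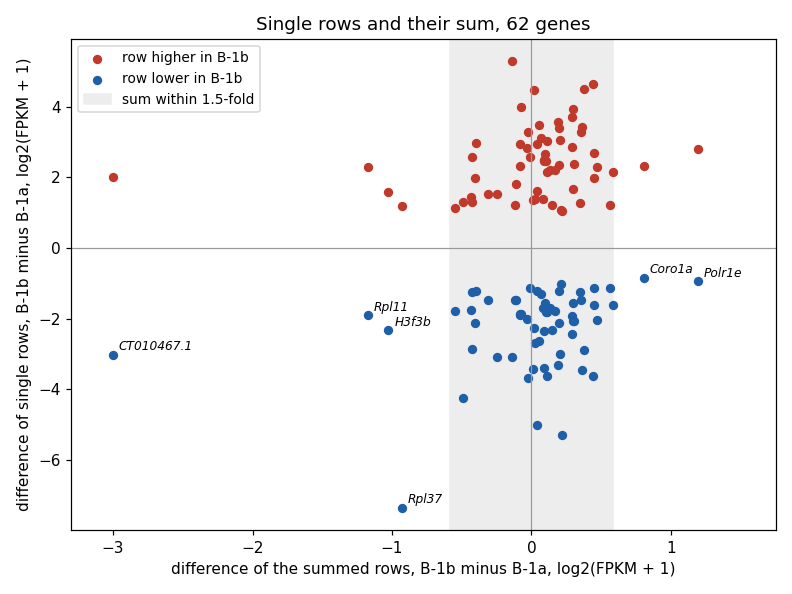
Difference between the groups (B-1b minus B-1a, mean log2(FPKM + 1)) of the row higher in B-1b (red) and the row lower in B-1b (blue) on the vertical axis, against that of the gene's sum on the horizontal axis, for 62 genes. In 55 genes the sum lies in the grey band of 1.5-fold, and CT010467.1, Rpl11, H3f3b, Rpl37, Polr1e, Coro1a and, at its edge, Ubp1 lie outside it.

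The sums of a few genes differed in the direction of 1 of their rows. Polr1e (chr4:45018583-45036565, plus strand), a subunit of RNA polymerase I, had the largest positive difference. Its sum was 4.72 and 6.25 FPKM in B-1a against 13.98 and 13.5 FPKM in B-1b, a difference of 1.19 on the log2(FPKM + 1) scale. The rows of Polr1e were at 0.649 and 1.04 FPKM against 12.2 and 11.4 FPKM and 4.07 and 5.21 FPKM against 1.82 and 2.02 FPKM. Coro1a followed with 0.81, and Ubp1 (chr9:113930934-113977202, plus strand), a transcription factor, with 0.59. Without B-1a replicate 2 the difference was 0.29 in Coro1a and 0.12 in Ubp1, and without B-1a replicate 1 it was 1.32 and 1.05. Ubp1 was at 7.56 and 3.50 FPKM in B-1a, the first library close to the B-1b libraries at 8.58 and 8.07 FPKM.

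The sums furthest below those of B-1a were in CT010467.1, Rpl11 and H3f3b. The sum of CT010467.1 differed by -3.00 on the log2(FPKM + 1) scale, and by -2.02 when B-1b replicate 1 was left out and -3.99 when replicate 2 was. Rpl11 was at 246 and 255 FPKM in B-1a against 91.3 and 134 FPKM in B-1b and differed by -1.17, without overlap of the groups. H3f3b (chr11:116021912-116027962, minus strand), which encodes the replacement histone H3.3 and has processed copies, was at 32.5 and 103 FPKM in B-1a against 18.3 and 42.6 FPKM in B-1b. The difference of -1.03 in H3f3b therefore did not separate the groups, and it was -1.84 and -0.21 when B-1a replicate 1 or 2 was left out and -0.44 and -1.61 when B-1b replicate 1 or 2 was.

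Limma fitted to all 12137 rows with at least 1 FPKM in at least 2 libraries placed 6 rows below a false discovery rate of 0.05, which is 0.0494% of them, and 1199 below an unadjusted p of 0.05. Of the 199 rows of the chosen genes that entered it, 1 was among the 6, the Rpl37 row listed at 0 in B-1b. The rule had chosen that row by the same values, so its call is a description and no test of the row. With an ordinary linear model, with the replicate block or without any 1 of the libraries 0 rows passed, the Rpl37 row included. Over the 7557 summed genes 15 passed, or 0.198%, and 0 of the 62 chosen genes did. With an ordinary linear model or the replicate block 0 sums passed. In the limma fit 4 of the 62 had an unadjusted p below 0.05, beside 730 of all 7557. These counts are no test of the 62, since their sums hold the rows by which the rule chose them. For 1 gene on its own, the two-sided exact permutation p of this design has a floor of 0.333. Where the replicates are not separate animals or preparations, these values measure technical spread alone.

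The spread between libraries of the same group was wide for single rows. When the rule was applied to pairs of single libraries, 548 of the 3305 genes (16.6%) had opposite rows between the 2 B-1a libraries and 531 (16.1%) between the 2 B-1b libraries. Between a B-1a and a B-1b library the number was 524 to 593 (15.9% to 17.9%). At 10-fold instead of 2-fold, there were 133 and 90 genes within the groups and 94 to 121 between them. Rows of 1 gene thus exchanged between libraries of the same cell type about as often as between cell types. What part the division of shared reads by the assembler had in the differences between the groups was not tested. The 62 genes are those in which an exchange in the same direction was present in all 4 pairs of a B-1a with a B-1b library, and the pair counts, which need 1 library on each side, are not a background rate for that.

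**Figure D4:**
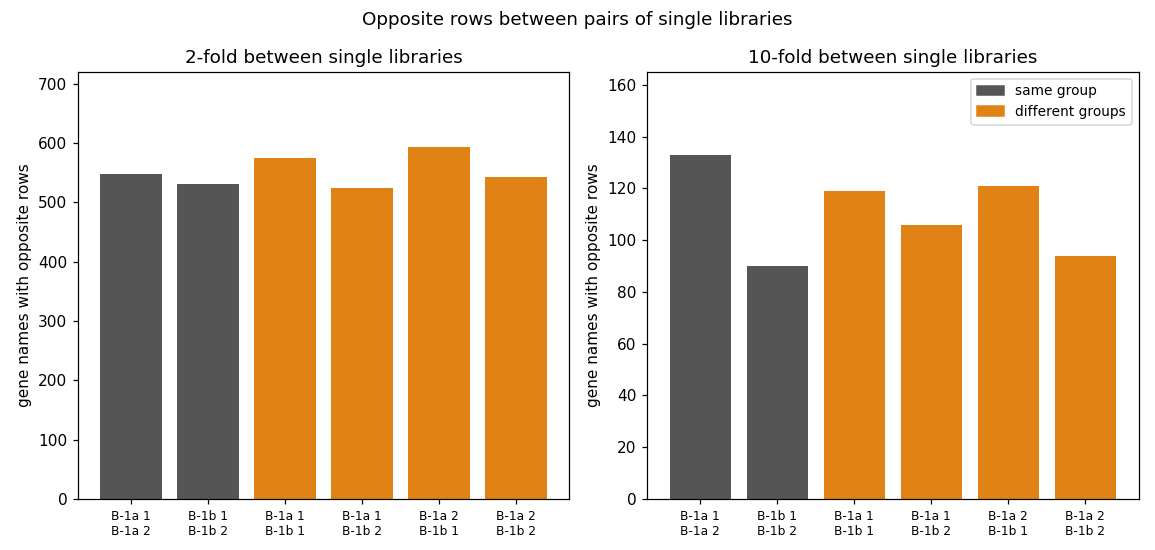
Number of gene names, of 3305, with opposite transcript rows between each pair of single libraries at 2-fold (left) and 10-fold (right), with pairs of the same group in grey and pairs of different groups in orange. At 2-fold the same-group pairs stand at 548 and 531 and the others between 524 and 593.

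A number of the chosen genes also had rows that exchanged inside a group. Between the B-1a libraries these were Ei24, Hnrnpk and Park7, and between the B-1b libraries Dtx2, Hnrnpk, Hp1bp3, Nubp2 and Ptp4a1. Hp1bp3, a chromatin protein that binds heterochromatin protein HP1, had 1 row at 39.4 and 35.0 FPKM in B-1a against 0.281 and 0.109 FPKM in B-1b. In B-1b replicate 1 the level of Hp1bp3 was instead in a row at 44.6 FPKM, and in replicate 2 in a different row at 39.9 FPKM. The first of these was at 0.817 FPKM in replicate 2 and the second at 2.08 FPKM in replicate 1. The sum of Hp1bp3 was nevertheless 53.1 and 50.2 FPKM in B-1a against 54.1 and 52.4 FPKM in B-1b.

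Nubp2, a factor that assembles cytosolic iron-sulfur clusters, showed the same arrangement. Its row lower in B-1b was at 36.9 and 48.9 FPKM in B-1a against 0.120 and 0.0963 FPKM in B-1b. The level in B-1b lay in a row at 40.5 and 1.09 FPKM and in another listed at 0 in replicate 1 and at 48.3 FPKM in replicate 2. The row that met the rule as higher in B-1b was minor, at 0.766 and 0.989 FPKM against 2.86 and 2.81 FPKM. In both genes the B-1a libraries shared a leading row and the B-1b libraries did not.

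**Figure D5:**
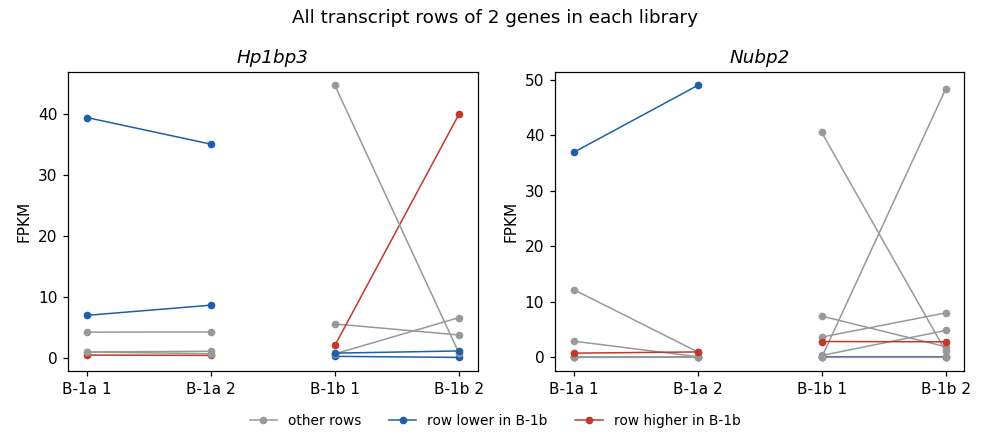
Level in FPKM of all rows of Hp1bp3 (6 rows) and Nubp2 (9 rows) in the 4 libraries, with rows lower in B-1b in blue, rows higher in B-1b in red and all others in grey. In the B-1b libraries a different row carries each gene, at 44.6 and 39.9 FPKM for Hp1bp3 and at 40.5 and 48.3 FPKM for Nubp2.

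Ei24, an endoplasmic reticulum protein with a role in autophagy, had 2 rows. They were at 8.76 and 2.54 FPKM in B-1a against 23.3 and 37.5 FPKM in B-1b and at 8.78 and 38.3 FPKM against 3.99 and 3.397 FPKM. The 2 rows were nearly equal in B-1a replicate 1, and in B-1a replicate 2 the second row led. Ptp4a1, a protein tyrosine phosphatase, had a row listed at 0 in both B-1a libraries and at 7.29 and 3.28 FPKM in B-1b, and an opposite row at 10.4 and 7.70 FPKM against 3.55 and 3.53 FPKM. Another row of Ptp4a1 was at 2.78 FPKM in B-1b replicate 1 and at 10.7 FPKM in replicate 2, where it led the rows of that name. The name Ptp4a1 has 2 gene IDs, so these rows may belong to different annotated genes. Dtx2, a ubiquitin ligase of the Deltex family, had a row listed at 0 in both B-1a libraries and at 2.44 and 5.22 FPKM in B-1b, opposite to 1 at 3.83 and 4.55 FPKM against 0.427 and 0.587 FPKM. The row that led Dtx2 in B-1b replicate 1, at 4.72 FPKM, was at 0.137 FPKM in replicate 2.

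The remaining genes are given by what their products do, as a description. Proteins that add, remove or recognise ubiquitin included Usp47 and Usp4, which are deubiquitinases, Dcaf11, a substrate receptor of a cullin ligase, Anapc5, a subunit of the anaphase-promoting complex, and Glmn, which binds the cullin ligase subunit Rbx1. A row of Usp47 was listed at 0 in both B-1a libraries and at 17.4 and 12.4 FPKM in B-1b, and its opposite row was at 19.0 and 18.7 FPKM against 5.73 and 3.47 FPKM. Dcaf11 had a row listed at 0 in B-1a and at 8.93 and 9.91 FPKM in B-1b, and a row at 13.1 and 11.1 FPKM against 5.11 and 4.21 FPKM. Usp4 rows were at 1.11 and 2.62 FPKM against 9.04 and 6.79 FPKM and 5.23 and 4.23 FPKM against 0.687 and 0.103 FPKM. The rows of Glmn were low, at 0.0300 and 0.0279 against 4.44 and 2.05 FPKM and 2.96 and 4.68 against 0.0703 and 0.101 FPKM. In Anapc5, with 7 rows and a sum of 71.4 and 76.0 FPKM in B-1a against 65.9 and 58.4 FPKM in B-1b, 2 rows were higher in B-1b, at 0.256 and 0.524 FPKM against 3.64 and 2.44 FPKM and at 3.15 and 2.41 FPKM against 9.19 and 8.20 FPKM. The opposite row of Anapc5 was at 8.35 and 10.9 FPKM against 0.194 and 0.287 FPKM.

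Chromatin factors among the chosen genes, besides Carm1, Hp1bp3 and H3f3b, were the acetyltransferase Kat2a, the bromodomain protein Brd3 and the nucleosome assembly protein Nap1l4. Kat2a rows were at 0.00720 and 0.310 FPKM against 17.6 and 15.6 FPKM and 10.6 and 12.6 FPKM against 2.698 and 3.87 FPKM. In Brd3 they were at 1.27 and 0 FPKM against 4.28 and 3.06 FPKM and 3.04 and 4.81 FPKM against 0.921 and 1.22 FPKM. Nap1l4 had a row at 0 and 19.3 FPKM in B-1a against 61.4 and 44.4 FPKM in B-1b, in which the B-1a libraries themselves differed widely, and a row at 47.3 and 24.2 FPKM against 1.08 and 4.88 FPKM.

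Several products act in endosomes, lysosomes or mitochondria. Slc15a4, an endolysosomal transporter that endosomal toll-like receptors need in B cells, had rows at 13.2 and 19.3 FPKM against 39.6 and 47.5 FPKM and 35.8 and 32.2 FPKM against 10.1 and 1.68 FPKM. Its sum was steady, at 62.7 and 65.1 FPKM in B-1a against 63.6 and 66.3 FPKM in B-1b. The lysosomal peptidase Tpp1 had rows at 1.88 and 0.0498 FPKM against 23.5 and 20.2 FPKM and 16.9 and 24.6 FPKM against 5.81 and 3.74 FPKM. Clcn7, a chloride transporter of lysosomes, had rows at 2.83 and 0.317 FPKM against 10.3 and 8.49 FPKM and 2.26 and 3.42 FPKM against 0.149 and 0.181 FPKM. Snx27, a sorting nexin of recycling endosomes, was lower, with rows at 1.52 and 1.03 FPKM against 3.39 and 4.24 FPKM and 2.80 and 2.32 FPKM against 0.940 and 0.615 FPKM. In Parl, a protease of the inner mitochondrial membrane, they were at 6.91 and 4.83 FPKM against 14.2 and 19.1 FPKM and 16.8 and 15.5 FPKM against 0.361 and 0.870 FPKM. These sums differed by less than 1.5-fold between the groups in all 5 genes.

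Other enzymes with opposite rows were Gcdh, of lysine breakdown, Pgls, of the pentose phosphate pathway, Nudt1, which removes oxidised nucleotides, and Acsf3, a mitochondrial acyl-CoA synthetase. Gcdh rows were at 0.780 and 0.361 FPKM against 6.26 and 5.43 FPKM and 6.11 and 5.16 FPKM against 0.634 and 1.20 FPKM. In Pgls they were at 0.714 and 1.08 FPKM against 3.88 and 3.45 FPKM and 29.3 and 23.7 FPKM against 10.4 and 10.7 FPKM. Nudt1 had rows at 0.997 and 0 FPKM against 2.96 and 3.21 FPKM and 4.76 and 4.38 FPKM against 1.29 and 0.736 FPKM. Acsf3 rows were at 0 and 0.769 FPKM against 2.25 and 3.04 FPKM and 4.62 and 3.94 FPKM against 0 and 1.40 FPKM. Gcdh and Nudt1 overlap a gene on the other strand, and Pgls and Acsf3 overlap 1 on the same strand.

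Las1l, an enzyme of ribosomal RNA processing, had 2 rows. They were at 1.60 and 1.57 FPKM against 18.4 and 16.3 FPKM and 21.2 and 20.0 FPKM against 4.57 and 4.21 FPKM, with sums of 22.8 and 21.6 FPKM in B-1a against 22.96 and 20.5 FPKM in B-1b. Cdkn2d, an inhibitor of the cyclin-dependent kinases of early cell cycle, had rows at 2.86 and 6.85 FPKM against 33.2 and 36.0 FPKM and 24.2 and 28.3 FPKM against 8.19 and 7.49 FPKM. Axin1, a scaffold of Wnt signaling, had a row listed at 0 in B-1a and at 7.57 and 6.16 FPKM in B-1b, and 1 at 2.07 and 2.15 FPKM against 0.501 and 0.174 FPKM. In Pomgnt1, a Golgi enzyme of protein mannosylation, a row was listed at 0 in B-1a and at 8.84 and 8.69 FPKM in B-1b, beside a row at 8.26 and 8.49 FPKM against 2.96 and 1.83 FPKM. A row of Nme6, of the nucleoside diphosphate kinase family, was listed at 0 in B-1a and at 4.09 and 3.90 FPKM in B-1b, opposite to 1 at 4.05 and 6.06 FPKM against 1.04 and 0.316 FPKM. In all, 9 of the 62 genes had their higher row listed at 0 in both B-1a libraries, and Rpl37 and Tmem19 had their lower row listed at 0 in both B-1b libraries. How often this occurs over all genes with several rows was not counted.

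Rows of Skiv2l, a helicase of cytoplasmic RNA decay, were at 0.311 and 0 FPKM in B-1a against 9.70 and 8.17 FPKM in B-1b and at 8.75 and 7.11 FPKM against 3.29 and 2.06 FPKM. Brox, which carries a Bro1 domain, had rows at 8.67 and 0.693 FPKM against 21.8 and 21.03 FPKM and 12.3 and 19.5 FPKM against 0.612 and 0.534 FPKM. Hilpda, a lipid droplet protein, had 1 at 7.73 and 6.37 FPKM against 17.4 and 20.4 FPKM and 1 at 21.7 and 18.3 FPKM against 0.000560 and 0.214 FPKM. The B-1a libraries of Brox were far apart in the higher row, and those of Hilpda close together.

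The lipase gene Lipo3 overlaps Lipo2, a relative on the same strand that can share its reads, and had rows at 2.01 and 0.328 FPKM against 8.67 and 8.89 FPKM and 7.04 and 4.21 FPKM against 0.672 and 0.484 FPKM. Rmc1, a partner of the complex that activates Rab7 on late endosomes, had rows at 1.502 and 0 FPKM against 7.80 and 10.4 FPKM and 10.7 and 11.7 FPKM against 3.16 and 3.08 FPKM. Pdik1l rows were at 0.0260 and 0.00679 FPKM against 4.95 and 4.34 FPKM and 4.57 and 5.16 FPKM against 0.729 and 0.631 FPKM. The sums of Pdik1l overlapped, at 4.600 and 5.17 FPKM against 5.67 and 4.97 FPKM, and those of Rmc1 were close without overlap, at 14.5 and 13.5 FPKM against 15.4 and 14.7 FPKM. Zfp524, a zinc finger gene, had a higher sum in B-1b beside its row that was lower there, at 5.64 and 5.52 FPKM in B-1a against 7.96 and 9.55 FPKM in B-1b. Ppp1r12c, a regulatory subunit of myosin phosphatase, had a lower sum without overlap, at 14.03 and 13.3 FPKM against 10.3 and 7.83 FPKM.

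The other chosen genes were Gstt2, Mettl21a, Nadk2, Tmem19 and Tmem8. Tmem19 had a row at 2.07 and 7.03 FPKM in B-1a that was listed at 0 in both B-1b libraries, and 1 at 2.03 and 1.83 FPKM against 6.02 and 5.54 FPKM. The opposite rows of Gstt2, Mettl21a and Tmem8 were all below 10 FPKM. Nadk2, the mitochondrial NAD kinase, was 1 of the 3 nearest to the threshold inside, at 2.05-fold, with Polr1e at 2.01-fold and Coro1a at 2.04-fold in the weaker row. The nearest outside were Ppcs and Papola, both at 1.97-fold, and Lipe at 1.93-fold. Rows of Ppcs were at 1.18 and 1.32 FPKM against 7.48 and 5.79 FPKM and at 9.72 and 9.38 FPKM against 3.10 and 4.76 FPKM, so that genes on either side of the threshold differed little in this measure.

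The genes on the lists of B cell markers and B cell receptor signaling were not among the chosen ones. Of the B cell markers 12 of 20 had several rows, of the BCR signaling genes 14 of 30 and of the antigen presentation and surface receptor genes 29 of 45, and 0 of each were chosen. Likewise 0 of the 30 vesicle traffic genes, 27 translation genes, 4 B-1 cell markers, 3 macrophage markers and 3 plasma cell markers with several rows on those lists were chosen. The lists hold only part of the genes of each kind, and chosen genes such as Rpl11, Rpl37, Snx27, Clcn7, Tpp1, Slc15a4, Tbc1d20 and Rmc1 were not on them. The lists with chosen genes were splicing and RNA processing with 3 of 37 (Hnrnpk, Hnrnpr and Snrpa), transcription factors and chromatin with 2 of 21 (Foxp1 and Hp1bp3), ubiquitin, proteasome and autophagy with 2 of 27 (Park7 and Usp4), mitochondria and metabolism with 2 of 32 (Idh1 and Pank4), DNA repair and cell cycle with 2 of 12 (Anapc5 and Parg) and cytoskeleton and adhesion with 1 of 31 (Coro1a). These counts stand beside the 1.88% of all genes with several rows, and no test was run on them.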

How the data were processed

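Peritoneal B-1a and B-1b cells were compared. Per the methods, HISAT2 placed the reads on GRCm38/mm10, and the authors used StringTie for quantification and Ballgown for testing. Tool versions, annotation release and row filter were not given in the sources used here, nor was the counting of strand. The deposited values were read as FPKM per transcript row, since they are fractional and sum to different totals. The table names no unit, and the depositors' own name for it speaks of raw read counts, which differs from this reading. No whole-read steps were seen, so no counting interval is given. B-1b replicate 3 equals replicate 1 in 13722 of 13747 rows and B-1a replicate 3 is the mean of replicates 1 and 2 in 13710 (relative tolerance 1e-06), so replicates 1 and 2 were used. No further column holds sample values (0 were found).

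The members and lists were chosen with earlier results of these data known. In R 4.3.3, limma 3.58.1 (trend on mean level) was fitted to log2(FPKM + 1) of rows and of the sums over a name. Features needed 1 FPKM or more in 2 or more of the 4 libraries, with Benjamini-Hochberg adjustment over all features. On simulated data of 12137 rows the row fit recovered 0% of changes of 1 or 2 and 67.5% of changes of 4 on the log2 scale. The changes were added only to some rows of higher mean level, under normally distributed noise, so recovery in lower rows was not simulated.

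Named genes were the 12 with the widest separation of opposite rows, the 6 with the highest sums, the 6 with the largest change of share, any on the B cell, BCR and antigen presentation lists (0 were found), the 3 on each side of the threshold and the 3 with the largest rise and fall of the sum. Other genes are given as examples, and 1 marker gene is not reported here. Gene positions and exon sequences are from GENCODE M21. The alternatives were other thresholds, pseudocount, filter, model, scaling, a replicate block, leaving out each library and the mean of B-1b replicates 1 and 3. The comparison of single libraries was added after seeing the data. Counts and figures used pandas 2.3.3, numpy 2.4.6, Python 3.11.15 and matplotlib 3.10.9.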

Additional observations from a re-analysis of the deposited data

How the results depend on the processing

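The rule chose 30 genes at 3-fold and 32 with a minimum of 5 FPKM, all among the 62. It chose 199 to 228 genes when 1 of the 4 libraries was left out, all 62 included. These overlaps are fixed by the rule, since a stricter threshold can only keep some of the 62 and a missing library only loosens it. The mean of B-1b replicates 1 and 3 likewise leaves the rows of the 62 unchanged, because replicate 3 repeats replicate 1 there. The number stayed within 1.5 times under 1.5-fold (90 genes), a minimum of 1 FPKM (72), equal upper quartiles (61, of which 60 were among the 62) and the mean of B-1b replicates 1 and 3 (62). Limma placed 0 rows and 0 gene sums below a false discovery rate of 0.05 with the replicate block, with an ordinary linear model, and when any 1 library was left out (0 to 0), where the lone library of a group is assumed to vary like the other group. Without the filter on low values 8 gene sums passed instead of 15. The replicate numbers are not known to pair the samples: deviations of same-numbered samples correlated at r = 0.00124 across gene names. The median difference of the sums of the 62 genes was 0.05 to 0.14 when a library was left out, and the leading row differed between the groups in 51 or 52 genes. The rule itself fixes the direction of the single rows. Of 22 differences of sums in the named genes 6 changed sign when 1 library was left out (Calu, Chtf8, Hnrnpk, Parg, Park7 and Tbc1d20), Tbc1d20 also under equal upper quartiles. With 2 libraries per group and unknown depth, changes of 2 on the log2 scale were below what the test over all rows recovered on simulated data. The cause of the calls lost was not tested.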
